A study of Danio rerio with 13 samples.

Results

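Translation initiation and elongation factor genes were taken as the genes whose only symbol in the array annotation starts with eif or eef, and 64 of the 8793 genes with a symbol of their own met this rule. They are carried by 80 of the 10795 probe sets with 1 symbol, and each gene was read from the probe set with the highest mean over the 13 arrays. Of the 64 genes, 51 carry an eif symbol and 13 an eef symbol. GFP+ acute lymphoblastic leukemia (ALL) cells had been sorted from the bodies of adult zebrafish, 1 fish per array, and their RNA was read on Affymetrix Zebrafish Genome Arrays. The *hMYC-2* (n = 6) and *hMYC-1* (n = 4) ALL came from *rag2:hMYC;lck:eGFP* double transgenic fish, in which human MYC is driven by the *rag2* promoter of immature lymphocytes, and the *hlk* ALL (n = 3) from the *hlk;lck:eGFP* line. All 3 groups therefore carry the *lck:eGFP* transgene, and the sort took bright and dim GFP+ cells of a fish together. The *hMYC-1* and *hMYC-2* groups had themselves been made by clustering these arrays, so a test between them describes the split.

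In eukaryotes, initiation factors bring the small ribosomal subunit and the initiator tRNA to an mRNA. The eIF4F complex holds the cap and unwinds the leader, eIF2 delivers the tRNA, eIF3 scaffolds the assembly, and elongation factors then carry each further tRNA and move the ribosome along. The 4E-binding proteins, which the TOR kinase phosphorylates, compete with eIF4G for eIF4E and so restrain cap-dependent initiation. MYC is widely known as a driver of ribosome production and protein synthesis.

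The deposited values are log2 levels, already normalized over all arrays, and the medians of the arrays lay between 4.97 and 5.09. The highest of 17 tag controls, probe sets with no zebrafish target, read 5.68 and was taken as the upper limit of background, which 7 members did not exceed on average. Of 12 B cell markers 9 were measured, and their mean level was 9.52 to 9.86 on the *hMYC-2* arrays and 8.69 to 9.93 on the *hMYC-1* arrays, against 5.55 to 5.57 on the *hlk* arrays, where 7 of the 9 were within background throughout. Of 11 T cell markers 3 were measured, meaning that a probe set had that symbol alone, and they did not go the same way. The means in *hMYC-2*, *hMYC-1* and *hlk* were 3.57, 4.17 and 7.77 for *gata3*, without overlap with *hlk*. For *rag1* they were 5.27, 7.25 and 9.06, with *hlk* replicate 1 within background at 5.5. *rag2*, which the paper counts among lymphoblast genes, had 7.24, 7.66 and 6.64 and was not called. The T cell marker *itk* had no probe set with that symbol alone, but the paper shows it from these arrays as highest in *hlk* and lowest in *hMYC-2*. By the B cell markers and *gata3*, lineage content and fish line both differ between the *hMYC* groups and *hlk*, and cannot be told apart in any comparison with *hlk*. The paper predicted that *hMYC-1* samples were mainly T-ALL with some B cells, and that *hMYC-2* samples had the largest share of B-lineage cells. An *hMYC* array may thus hold a mixture of B and T cells, whose shares were not measured here. Of 7 erythroid markers 6 were within background on every array of each group, as were 8, 8 and 5 of 8 neutrophil and macrophage markers in *hMYC-2*, *hMYC-1* and *hlk* ALL. The control gene GAPDH had a 3′ to 5′ gap of 4.69 on *hlk* replicate 1, against 1.09 to 2.49 on the other arrays, a gap that widens with shorter RNA and whose part in the results was not tested. In sorted bulk cells, a lower level from fewer cells of a type and one from less RNA per cell cannot be told apart.

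In *hMYC-2* against *hlk* ALL, 12 of the 64 genes were higher and 5 lower at an adjusted p under 0.05 (limma, Benjamini-Hochberg over 15502 probe sets). That is 18.8% and 7.81% of the members, beside 11.0% and 13.7% of all probe sets. In *hMYC-1* against *hlk* ALL, 11 were higher and 6 lower, or 17.2% and 9.38% of the members beside 9.13% and 9.63% of all probe sets. Since most members are expressed, the nearer comparison is with probe sets whose mean exceeds background. Of the 57 such members, 21.1% were higher and 8.77% lower in *hMYC-2*, beside 19.1% and 18.1% of 6478 such probe sets, and 19.3% were higher and 10.5% lower in *hMYC-1*, beside 16.9% and 13.9%. The share of higher genes was thus close to that of other expressed genes, while the share of lower genes was below theirs, more so in *hMYC-2*. These gaps were not tested, and both comparisons share the same *hlk* arrays. The arrays of the groups did not overlap for 19 of the 64 members in *hMYC-2* against *hlk*, beside 23.2% of all probe sets. In *hMYC-1* against *hlk* they did not overlap for 18 of the 64 members, beside 23.2% of all probe sets. The share without overlap among probe sets above background was not counted, so these counts are not set against other expressed genes.

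The normalized levels of the translation factors as a set lay close together in the 3 kinds of ALL. Normalization gives all arrays a common distribution, so a difference in RNA per cell shared by most genes would not show here. The median difference of the 64 members was -0.012 (log2) in *hMYC-2* against *hlk* and 0.058 in *hMYC-1* against *hlk*, beside -0.065 and -0.025 over all probe sets. On single arrays, the median member stood between -0.047 and 0.062 from the *hlk* mean in *hMYC-2*, between -0.005 and 0.075 in *hMYC-1*, and between -0.028 and 0.035 in *hlk* itself. A shift of the arrays to equal means of *actb1* and *gapdh* moved the median of all probe sets to 0.159 in *hMYC-2* and 0.325 in *hMYC-1*. The median of the members was then 0.212 and 0.407, no called member changed sign, and none was called lower in either. The *gapdh* probe set that enters this shift read 4.72 to 5.33 in *hMYC-2*, 4.86 to 5.24 in *hMYC-1* and 4.88 to 6.66 in *hlk*, so it lay mostly within background. With the replicate number as a block, which no label ties to a batch, 6 members were higher and 3 lower in *hMYC-2*. With a shrinkage t and a local false discovery rate under 0.05 in place of limma, *eif4ebp1*, *eif4ebp3l*, *eif5a2* and *eif6* were called higher and *eif4ebp2* lower in both comparisons, *eif3s10* was called higher in *hMYC-1*, and no other member was called against *hlk*.

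**Figure D1:**
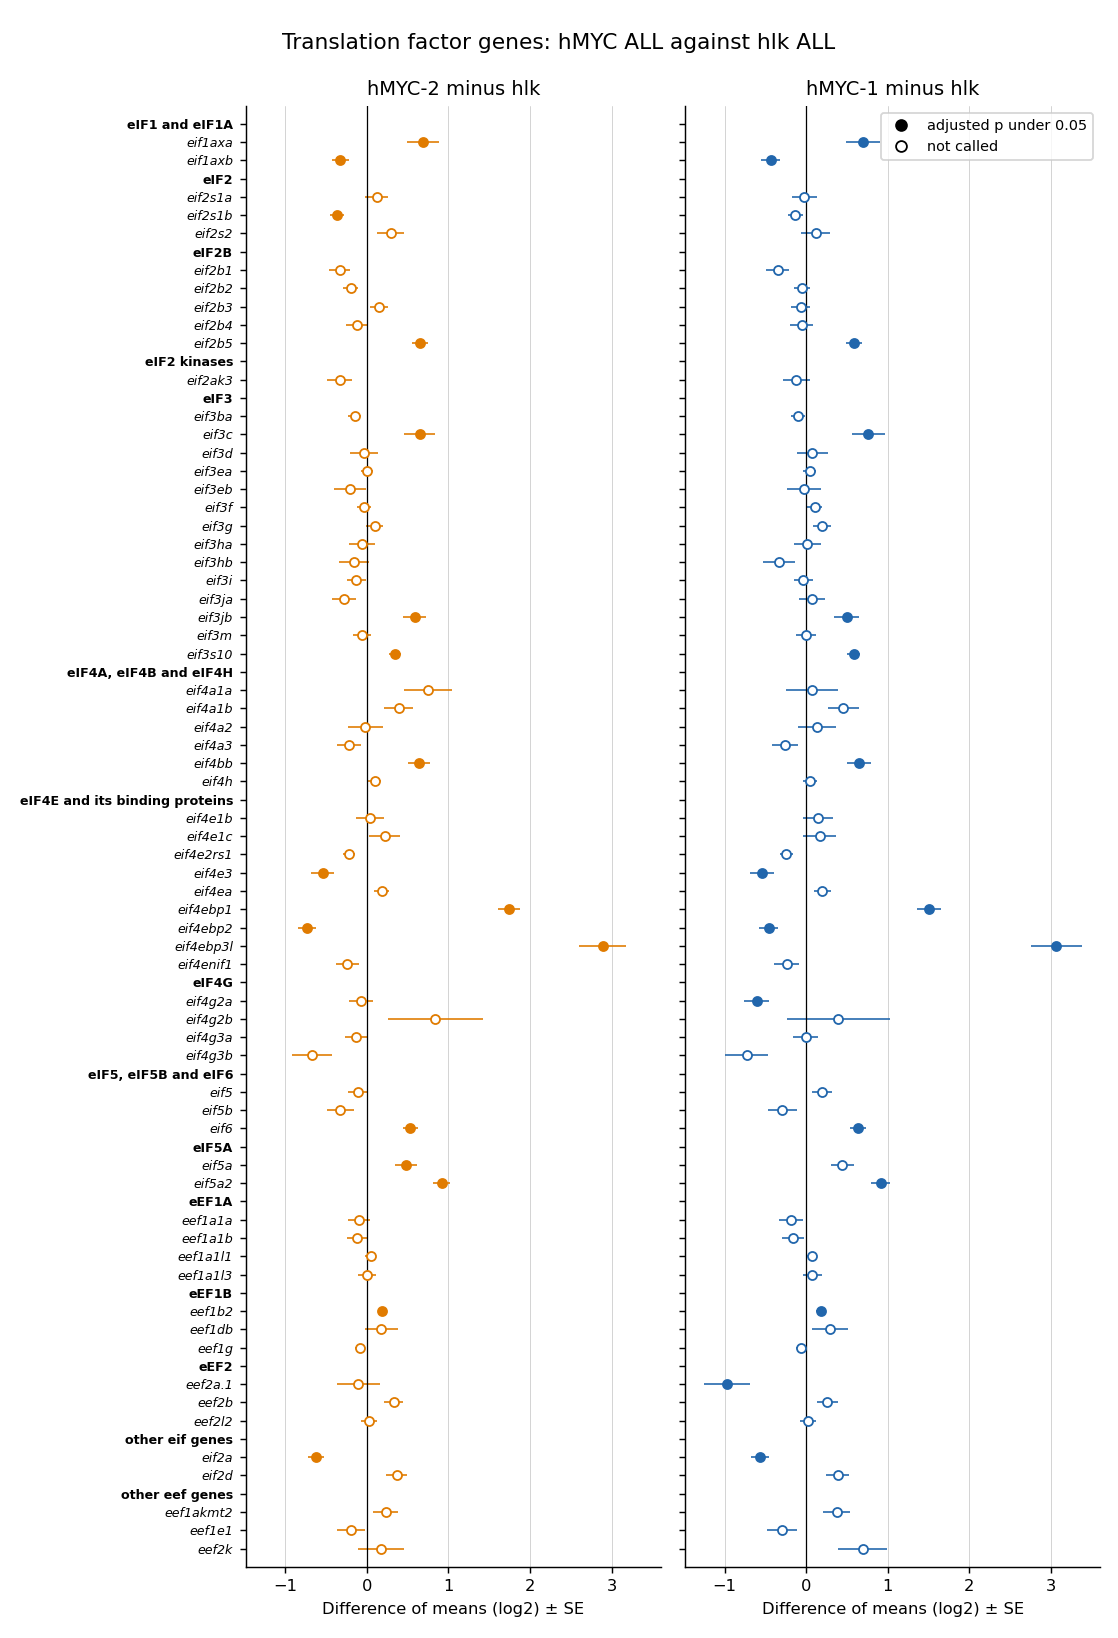
Difference of group means (log2, x axis, bars are limma standard errors) for each of the 64 translation factor genes, grouped by factor complex, in *hMYC-2* minus *hlk* (left) and *hMYC-1* minus *hlk* (right), with filled points for an adjusted p under 0.05. Most genes sit near 0, while *eif4ebp3l* at 2.89 and 3.07 and *eif4ebp1* at 1.74 and 1.50 stand far to the right.

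All 3 genes for 4E-binding proteins differed from *hlk* ALL, 2 of them upwards by more than any other member and the other downwards. *eif4ebp3l*, a fish relative of the third 4E-binding protein, ranged from 8.03 to 8.83 (median 8.2) in *hMYC-2* and read 8.06, 8.19, 8.81 and 8.84 in *hMYC-1*, against 4.76, 6.19 and 5.28 in *hlk*. Every *hMYC* array was thus far above the highest *hlk* array, and 2 of the 3 *hlk* values were within background. The difference was 2.89 ± 0.29 (SE) in *hMYC-2*, or 7.40-fold (adjusted p = 1.2e-05), and 3.07 ± 0.31 in *hMYC-1*, or 8.37-fold (adjusted p = 1.8e-05, limma).

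*eif4ebp1*, the best studied TOR-regulated brake on eIF4E, ranged from 10.12 to 10.72 (median 10.40) in *hMYC-2* and read 10.0, 10.31, 10.17 and 10.19 in *hMYC-1*, against 8.96, 8.47 and 8.56 in *hlk*. No *hMYC* array came within 1 log2 unit of an *hlk* array. It was 1.74 ± 0.14 higher in *hMYC-2* (3.34-fold, adjusted p = 1.3e-06) and 1.50 ± 0.15 higher in *hMYC-1* (2.84-fold, adjusted p = 1.3e-05, limma). These were the 2 members past a difference of 1 in either comparison, and neither gene lost a call in any alternative.

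*eif4ebp2*, a 4E-binding protein with the same action on eIF4E, went the other way. It ranged from 9.70 to 10.13 (median 9.75) in *hMYC-2* and read 10.02, 10.0, 10.27 and 10.18 in *hMYC-1*, against 10.55, 10.59 and 10.59 in *hlk*, with no overlap. The gene fell by 0.73 ± 0.11 (adjusted p = 0.00026) in *hMYC-2* and fell by 0.46 ± 0.11 (adjusted p = 0.013, limma) in *hMYC-1*. With the shift to equal *actb1* and *gapdh* the differences were -0.51 and -0.11 and no longer called (adjusted p = 0.12 and 0.70), and in *hMYC-1* the call was also lost with quantile normalization (adjusted p = 0.055) and array weights (adjusted p = 0.063).

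Among the cap-binding proteins themselves, 1 of 5 was called. *eif4e3*, which encodes a divergent cap-binding protein of the eIF4E family, ranged from 6.81 to 7.38 (median 7.29) in *hMYC-2* and read 7.45, 7.34, 7.11 and 6.99 in *hMYC-1*, against 7.96, 7.64 and 7.70 in *hlk*. It fell by 0.54 ± 0.14 (adjusted p = 0.013) in *hMYC-2* and fell by 0.54 ± 0.15 (adjusted p = 0.023, limma) in *hMYC-1*, without overlap. Left without *hlk* replicate 1, neither call held (adjusted p = 0.060 and 0.084), and in *hMYC-1* the call was also lost without *hMYC-1* replicate 3 (adjusted p = 0.058) or 4 (adjusted p = 0.067). Neither call held with the shift to *actb1* and *gapdh* (adjusted p = 0.38 and 0.50), with array weights (adjusted p = 0.075 and 0.080) or with the mean over probe sets (adjusted p = 0.43 and 0.40), and that in *hMYC-1* was lost in the fit of the 2 groups alone (adjusted p = 0.055). Its other probe set lay within background in all groups.

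*eif4ea*, a canonical cap-binding eIF4E, was not called although its groups did not overlap, at 7.63 to 7.99 in *hMYC-2* and 7.58 to 7.86 in *hMYC-1*, against 7.50 to 7.57 in *hlk*. The eIF4E2-related *eif4e2rs1* was at -0.22 ± 0.07 in *hMYC-2* (adjusted p = 0.051) and -0.24 ± 0.08 in *hMYC-1* (adjusted p = 0.054, limma), without overlap, and both differences passed without *hMYC-1* replicate 2 (adjusted p = 0.047 and 0.037), as did the one in *hMYC-2* without *hMYC-1* replicate 3 (adjusted p = 0.038). Both also passed with quantile normalization (adjusted p = 0.033 and 0.043) and with the mean over probe sets (adjusted p = 0.046 and 0.049). *eif4e1c* differed by 0.22 and 0.16, although its other probe set was 0.66 higher in *hMYC-2* (adjusted p = 0.024), *eif4e1b* was within background, and *eif4enif1*, the eIF4E transporter that takes eIF4E into P-bodies, differed by -0.24 in each.

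**Figure D2:**
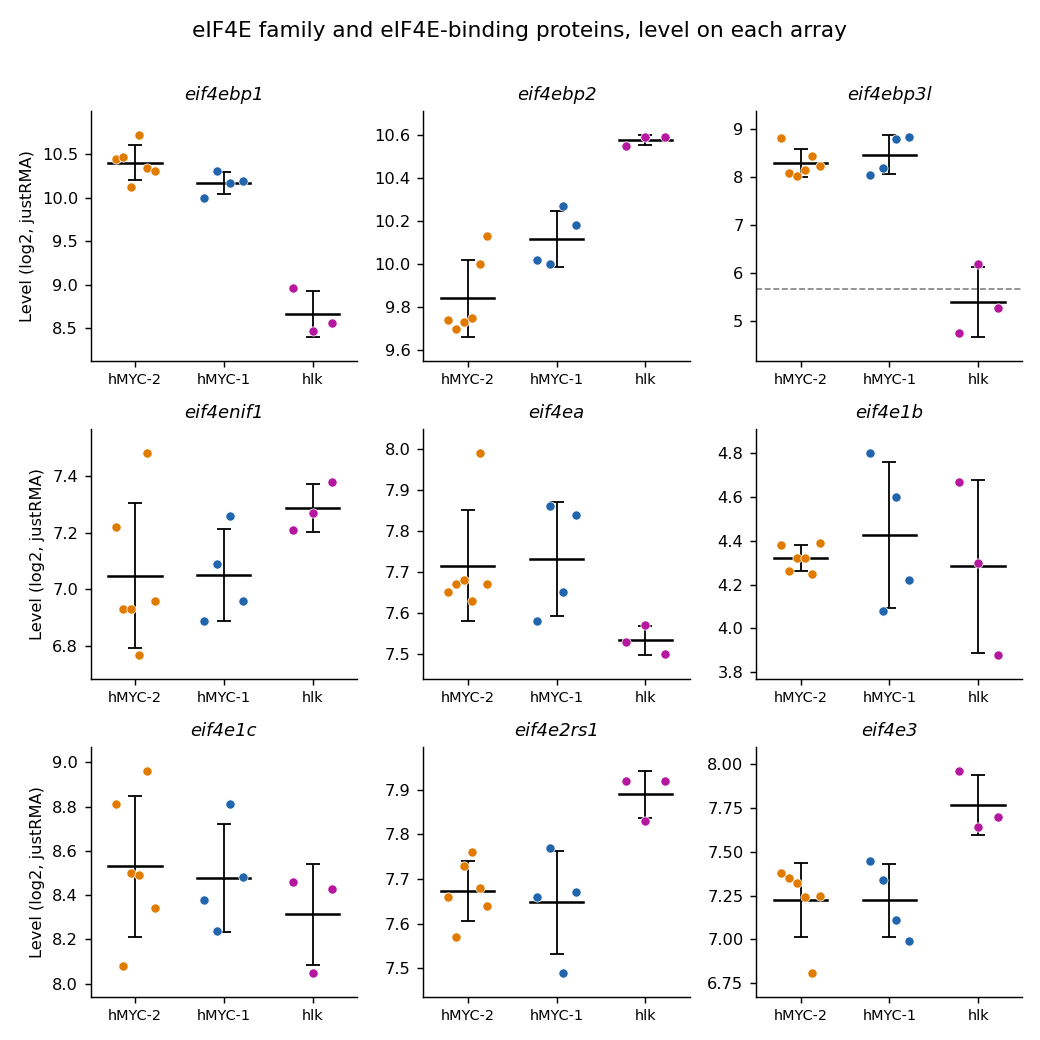
Level (log2, y axis) of the genes for eIF4E proteins and their binding partners on each array, with 1 point per fish, the group mean as a line and the SD as bars, and the upper limit of background dashed where it falls in the range. *eif4ebp1* and *eif4ebp3l* are higher on all *hMYC-2* and *hMYC-1* arrays than on any *hlk* array, and *eif4ebp2* and *eif4e3* are lower on all of them.

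Of the other parts of the cap complex, the helicase cofactor *eif4bb* was higher. *eif4bb* encodes eIF4B, which stimulates the helicase eIF4A, and ranged from 10.58 to 10.91 (median 10.68) in *hMYC-2* and read 10.74, 11.03, 10.34 and 10.73 in *hMYC-1*, against 9.88, 10.30 and 10.01 in *hlk*. The groups did not touch, and it was 0.64 ± 0.14 higher in *hMYC-2* (1.55-fold, adjusted p = 0.0046) and 0.65 ± 0.15 higher in *hMYC-1* (1.57-fold, adjusted p = 0.0082, limma). In a fit of *hMYC-1* and *hlk* alone the call in *hMYC-1* was lost (adjusted p = 0.064). The other helicase genes were not called, *eif4a1b* at 0.39 and 0.46, *eif4a2* at -0.02 and 0.14, *eif4h* at 0.10 and 0.05, and *eif4a3*, whose protein also marks exon junctions, at -0.22 and -0.26. Without *hlk* replicate 2, *eif4a1b* was called higher at 0.64 and 0.70 (adjusted p = 0.014 and 0.013) and *eif4a3* lower at -0.45 and -0.50 (adjusted p = 0.013 in each). That array held the highest *hlk* value of *eif4a1b* (12.11) and the lowest of *eif4a3* (9.84). Leaving it out takes away the value that opposes each difference, so those fits do not test them. *eif4a1a* ranged from 9.99 to 11.16 (median 11.02) in *hMYC-2* and read 10.36, 10.02, 10.12 and 10.27 in *hMYC-1*, against 9.35, 10.20 and 10.80 in *hlk*. It was 0.75 ± 0.30 above *hlk* in *hMYC-2* (adjusted p = 0.085, limma), and past the threshold without *hMYC-2* replicate 1 (adjusted p = 0.016) or *hlk* replicate 3 (adjusted p = 0.020). Both arrays opposed the difference, as the lowest *hMYC-2* and the highest *hlk* value, so these fits do not test it either.

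No gene for the scaffold eIF4G was called higher, and *eif4g2a* was called lower in *hMYC-1* ALL. *eif4g2a* encodes an eIF4G-like protein without the eIF4E-binding site (DAP5 in mammals), and it ranged from 7.83 to 8.35 (median 7.97) in *hMYC-2* and read 7.75, 7.60, 7.50 and 7.12 in *hMYC-1*, against 8.19, 7.92 and 8.18 in *hlk*. The 4 *hMYC-1* arrays lay below all others, with a difference from *hlk* of -0.60 ± 0.15 (adjusted p = 0.015), against -0.07 ± 0.14 in *hMYC-2* (adjusted p = 0.75). The call in *hMYC-1* was lost without *hlk* replicate 3 (adjusted p = 0.055), in the fit of the 2 groups alone (adjusted p = 0.058), with array weights (adjusted p = 0.061) and with the shift to *actb1* and *gapdh* (adjusted p = 0.39). The other probe set of the gene was within background on all *hMYC-1* arrays and was at least 0.25 lower there (adjusted p = 0.0036, limma). *eif4g2b*, its paralogue, had 8.06 to 9.55 in *hMYC-2* and 8.03 to 9.0 in *hMYC-1*, against 6.29, 9.26 and 9.38 in *hlk*, and the low value was that of *hlk* replicate 1. Its differences from *hlk*, 0.84 in *hMYC-2* and 0.39 in *hMYC-1*, were not called. *eif4g3a* and *eif4g3b*, genes of the related scaffold eIF4GII, had means within background, and *eif4g3b*, within background on every *hMYC* array, against 5.88, 5.36 and 6.53 in *hlk*, differed by at least 0.24 in each comparison without passing the threshold (adjusted p = 0.064 and 0.076). It was called lower in both without *hlk* replicate 2 (adjusted p = 0.015 and 0.017) and in *hMYC-2* without *hMYC-2* replicate 3 (adjusted p = 0.045). Leaving out these arrays takes away values that oppose the difference, so those fits do not test it. With quantile normalization *eif4g3b* was called lower in both as well (adjusted p = 0.039 and 0.047).

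Of the eIF3 subunits, 3 of 14 genes were higher in each comparison and none was lower, a share near that of the expressed probe sets called higher, 19.1% in *hMYC-2* and 16.9% in *hMYC-1*. *eif3s10*, which encodes the large core subunit eIF3a, ranged from 11.23 to 11.49 (median 11.36) in *hMYC-2* and read 11.62, 11.50, 11.59 and 11.68 in *hMYC-1*, against 11.10, 11.05 and 10.90 in *hlk*. The 3 groups did not overlap, and the differences from *hlk* were 0.34 ± 0.08 in *hMYC-2* (adjusted p = 0.0055) and 0.58 ± 0.08 in *hMYC-1* (adjusted p = 0.00030, limma). With the replicate block the call in *hMYC-2* was lost (adjusted p = 0.055).

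*eif3c*, another core subunit, ranged from 10.83 to 11.71 (median 11.47) in *hMYC-2* and read 11.64, 11.62, 11.39 and 11.43 in *hMYC-1*, against 10.38, 11.17 and 10.72 in *hlk*. It was 0.65 ± 0.19 higher in *hMYC-2* (adjusted p = 0.025) and 0.76 ± 0.21 higher in *hMYC-1* (adjusted p = 0.020, limma). The lowest value of both *hMYC-2* and *hlk* was that of replicate 1. Without *hlk* replicate 1 the differences were 0.46 and 0.57 (adjusted p = 0.12 and 0.081), without *hlk* replicate 3 the adjusted p was 0.067 and 0.058, and the replicate block gave 0.079 for *hMYC-2*. In *hMYC-1* the call was also lost without *hMYC-1* replicate 1 (adjusted p = 0.0505). With array weights neither call held (adjusted p = 0.068 and 0.076). That in *hMYC-2* was also lost in the fit of the 2 groups alone (adjusted p = 0.057) and with the shift to *actb1* and *gapdh* (adjusted p = 0.053).

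*eif3jb*, 1 of 2 genes for the loosely bound subunit eIF3j, ranged from 6.81 to 6.98 (median 6.93) in *hMYC-2* and read 6.57, 6.84, 6.82 and 7.07 in *hMYC-1*, against 6.74, 6.01 and 6.24 in *hlk*. The difference was 0.59 ± 0.14 in *hMYC-2* (adjusted p = 0.0086), lost with the replicate block (adjusted p = 0.089), and 0.49 ± 0.15 in *hMYC-1* (adjusted p = 0.039, limma), where it held only without *hMYC-1* replicate 1 or *hlk* replicate 1 among the 13 arrays left out in turn (adjusted p up to 0.16). The call of *eif3jb* in *hMYC-1* was also lost with a trended and robust prior (adjusted p = 0.055), with quantile normalization (adjusted p = 0.060) and in the fit of the 2 groups alone (adjusted p = 0.17). Its paralogue *eif3ja* was at -0.28 and 0.07 and was not called. The other 10 subunit genes, *eif3ba*, *eif3d*, *eif3ea*, *eif3eb*, *eif3f*, *eif3g*, *eif3ha*, *eif3hb*, *eif3i* and *eif3m*, were not called in any comparison. The median over the 14 genes was -0.05 in *hMYC-2* against *hlk* and 0.05 in *hMYC-1* against *hlk*.

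**Figure D3:**
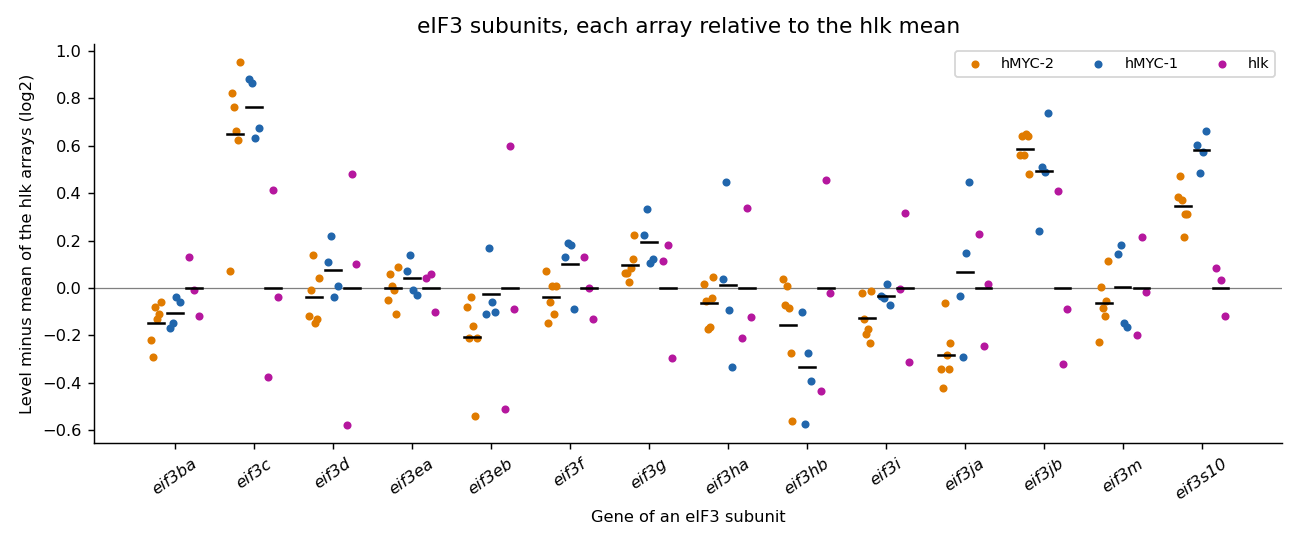
Level of the 14 eIF3 subunit genes on each array minus the mean of the *hlk* arrays (log2, y axis), with 1 point per fish and a line at each group mean. *eif3s10* is above all *hlk* arrays on every *hMYC-2* and *hMYC-1* array, *eif3c* and *eif3jb* are above *hlk* on average, each with overlap in 1 comparison, and the other subunits scatter around 0.

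Among the genes of eIF2 and its exchange factor eIF2B, *eif2b5* was the member that rose. It encodes the catalytic epsilon subunit, which reloads eIF2 with GTP, and ranged from 8.07 to 8.37 (median 8.2) in *hMYC-2* and read 8.15, 8.24, 8.03 and 8.11 in *hMYC-1*, against 7.45, 7.76 and 7.42 in *hlk*. All *hMYC* arrays were above all *hlk* arrays, by 0.65 ± 0.09 on average in *hMYC-2* (1.57-fold, adjusted p = 0.00025) and by 0.59 ± 0.10 in *hMYC-1* (1.50-fold, adjusted p = 0.0012, limma). With the shrinkage t both calls were lost (local false discovery rate 0.11 and 0.057). The other 4 eIF2B subunit genes ran from -0.33 to 0.15 in *hMYC-2* and from -0.35 to -0.05 in *hMYC-1* and were not called. For *eif2b1*, the regulatory alpha subunit at the low end of these ranges, a call in *hMYC-2* appeared without *hlk* replicate 2 (adjusted p = 0.043). That array held the lowest *hlk* value of the gene (7.53), which opposes the difference, so this fit does not test it.

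*eif2s1b*, 1 of 2 genes for the alpha subunit whose phosphorylation slows initiation under stress, ranged from 10.19 to 10.36 (median 10.27) in *hMYC-2* and read 10.66, 10.53, 10.34 and 10.52 in *hMYC-1*, against 10.78, 10.65 and 10.50 in *hlk*. It fell by 0.36 ± 0.09 (adjusted p = 0.0082, limma) in *hMYC-2*, where the groups did not overlap, and the difference was -0.13 ± 0.09 in *hMYC-1* (adjusted p = 0.39). The call was lost with the replicate block (adjusted p = 0.057) and with the shift to *actb1* and *gapdh* (adjusted p = 0.68). Its paralogue *eif2s1a* and the beta subunit gene *eif2s2* were not called, at 0.12 and 0.29 in *hMYC-2* and at -0.02 and 0.12 in *hMYC-1*. *eif2ak3*, the eIF2 kinase PERK of the endoplasmic reticulum, was at -0.33 and -0.12 and was not called. Another of its 3 probe sets was called lower in both but lay within background on every array.

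*eif2a*, which encodes eIF2A, a single-chain factor distinct from eIF2 that can bind initiator tRNA, fell in both comparisons. It ranged from 7.74 to 7.92 (median 7.79) in *hMYC-2* and read 8.0, 7.85, 7.82 and 7.80 in *hMYC-1*, against 8.15, 8.65 and 8.50 in *hlk*. No arrays overlapped, and it fell by 0.62 ± 0.10 (1.54-fold, adjusted p = 0.00061) in *hMYC-2* and fell by 0.57 ± 0.11 (1.48-fold, adjusted p = 0.0026, limma) in *hMYC-1*. With the shift to *actb1* and *gapdh* it was at -0.40 and -0.22 (adjusted p = 0.31 and 0.50), and with the shrinkage t both calls were lost (local false discovery rate 0.41 and 0.28). *eif2d*, a factor with a similar tRNA-binding role, was at 0.37 ± 0.13 (adjusted p = 0.051) and 0.38 ± 0.14 (adjusted p = 0.071), and was called in both without *hlk* replicate 1 (adjusted p = 0.014 and 0.019). It was also called in *hMYC-2* without *hMYC-1* replicate 2 (adjusted p = 0.049) or 3 (adjusted p = 0.045), and in *hMYC-1* without *hMYC-1* replicate 3 (adjusted p = 0.042). With the shift to *actb1* and *gapdh* it was called in both (adjusted p = 0.035 and 0.016). In *hMYC-2* the filter on low values (adjusted p = 0.045) and the mean over probe sets (adjusted p = 0.048) gave a call too.

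Of the paralogues of eIF1A, which helps the ribosome find the start codon, *eif1axa* was called higher. *eif1axb* was called lower by the probe set read here but not by its others. *eif1axa* ranged from 8.36 to 8.95 (median 8.74) in *hMYC-2* and read 8.25, 8.57, 9.13 and 8.94 in *hMYC-1*, against 8.34, 7.77 and 7.97 in *hlk*, and it was 0.69 ± 0.20 higher in *hMYC-2* (adjusted p = 0.022) and 0.70 ± 0.21 higher in *hMYC-1* (adjusted p = 0.038, limma). Its other probe set was also called higher, by 0.55 in each. The call was lost in both comparisons without *hlk* replicate 2 (adjusted p = 0.097 and 0.13) or *hlk* replicate 3 (adjusted p = 0.065 and 0.095), and with the replicate block in *hMYC-2* (adjusted p = 0.16). In *hMYC-1* it was also lost without *hMYC-1* replicate 3 (adjusted p = 0.094) or 4 (adjusted p = 0.097) or *hMYC-2* replicate 2 (adjusted p = 0.052). Array weights (adjusted p = 0.051) and the fit of the 2 groups alone (adjusted p = 0.12) ended the call in *hMYC-1* too.

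*eif1axb* ranged from 9.65 to 9.97 (median 9.80) in *hMYC-2* and read 9.73, 9.75, 9.61 and 9.66 in *hMYC-1*, against 10.21, 10.34 and 9.82 in *hlk*. It fell by 0.32 ± 0.11 (adjusted p = 0.042) in *hMYC-2*, a call that held only without *hMYC-2* replicate 4 or *hlk* replicate 3 among the 13 arrays left out in turn (adjusted p up to 0.19) and not with the replicate block (adjusted p = 0.14), and fell by 0.44 ± 0.11 (adjusted p = 0.018, limma) in *hMYC-1*, a call lost without *hlk* replicate 1 (adjusted p = 0.056) or 2 (adjusted p = 0.076). The other 2 probe sets of the gene were not called, at 0.20 and -0.03 in *hMYC-2* and at 0.16 and 0.04 in *hMYC-1*, so the fall rests on 1 of its 3 probe sets. The mean over the 3 was not called (adjusted p = 0.78 and 0.73). Both *eif1axb* calls were also lost in the fit of the 2 groups alone (adjusted p = 0.084 and 0.092) and with quantile normalization (adjusted p = 0.10 and 0.077). Neither held with the shift to *actb1* and *gapdh* (adjusted p = 0.77 and 0.74). In *hMYC-2* array weights (adjusted p = 0.077) and a trended and robust prior (adjusted p = 0.058) ended the call too.

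Both genes of eIF5A, the hypusine-bearing factor that helps ribosomes through stretches such as runs of proline, were higher in *hMYC-2*. *eif5a2* ranged from 11.86 to 12.33 (median 12.13) in *hMYC-2* and read 12.33, 12.07, 11.96 and 12.09 in *hMYC-1*, against 11.10, 11.23 and 11.27 in *hlk*. The lowest *hMYC* array was thus well above the highest *hlk* array, with differences of 0.92 ± 0.10 in *hMYC-2* (1.89-fold, adjusted p = 3.7e-05) and 0.91 ± 0.11 in *hMYC-1* (1.88-fold, adjusted p = 9.3e-05, limma) that no alternative but the 2-fold minimum ended. *eif5a* ranged from 12.81 to 13.07 (median 12.86) in *hMYC-2* and read 12.86, 12.84, 12.90 and 12.91 in *hMYC-1*, against 12.74, 12.57 and 11.99 in *hlk*. It was 0.47 ± 0.13 higher in *hMYC-2* (adjusted p = 0.021) and at 0.44 ± 0.15 just short of the threshold in *hMYC-1* (adjusted p = 0.051, limma), without overlap in either. Without *hlk* replicate 3, the lowest array, the difference in *hMYC-2* was 0.25 (adjusted p = 0.072), and with the replicate block the adjusted p was 0.082. In *hMYC-1* it passed without *hlk* replicate 1 (adjusted p = 0.0099). With all arrays it passed there with a trended and robust prior (adjusted p = 0.040), array weights (0.036), the filter on low values (0.041) and quantile normalization (0.0065). The shift to *actb1* and *gapdh* (0.0072) and the mean over probe sets (0.015) also gave a call. The replicate block, the shrinkage t and the fit of the 2 groups alone did not. The other probe set of *eif5a* was called higher in both comparisons, by 0.38 in *hMYC-2* (adjusted p = 0.025) and by 0.43 in *hMYC-1* (adjusted p = 0.024).

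*eif6*, which binds the large ribosomal subunit and keeps it from joining the small one too early, ranged from 9.50 to 9.89 (median 9.63) in *hMYC-2* and read 9.6, 9.87, 9.76 and 9.82 in *hMYC-1*, against 9.12, 9.11 and 9.15 in *hlk*. Every *hMYC* array was above every *hlk* array. The gene was 0.53 ± 0.09 higher in *hMYC-2* (1.45-fold, adjusted p = 0.00096) and 0.64 ± 0.10 higher in *hMYC-1* (1.55-fold, adjusted p = 0.00057, limma), and no alternative but the 2-fold minimum ended either call. *eif5*, which triggers GTP hydrolysis by eIF2, was at -0.11 and 0.20, and *eif5b*, which joins the subunits, at -0.33 and -0.29. Neither was called, but *eif5b* was called lower in both without *hlk* replicate 1 (adjusted p = 0.018 and 0.037).

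**Figure D4:**
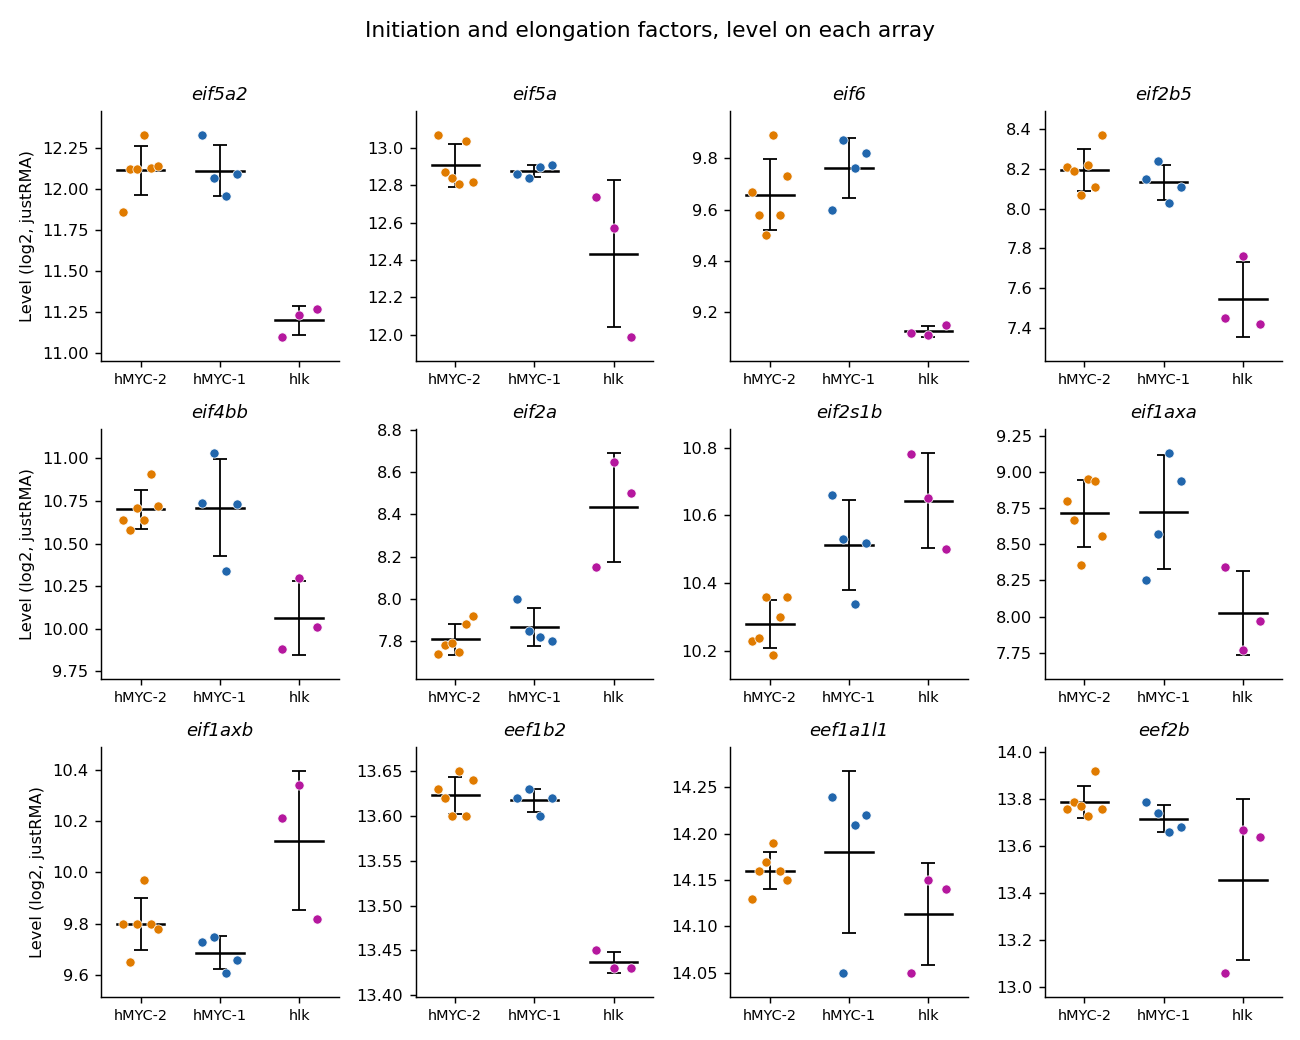
Level (log2, y axis) of 12 initiation and elongation factor genes on each array, with 1 point per fish, the group mean as a line and the SD as bars, and a y axis of its own for each gene. *eif5a2*, *eif6*, *eif2b5*, *eif4bb* and *eef1b2* are higher and *eif2a* lower on all *hMYC-2* and *hMYC-1* arrays than on any *hlk* array, while *eef1a1l1* spans 14.05 to 14.24 over all arrays.

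Of the 13 genes with an eef symbol, *eef1b2* was called higher in each comparison with *hlk* and *eef2a.1* lower in *hMYC-1*. *eef1a1l1*, the gene of the factor that brings charged tRNAs to the ribosome and a housekeeping gene of the study, ranged from 14.13 to 14.19 (median 14.16) in *hMYC-2* and read 14.24, 14.05, 14.21 and 14.22 in *hMYC-1*, against 14.05, 14.15 and 14.14 in *hlk*. The groups overlapped, and the differences were 0.05 ± 0.06 in *hMYC-2* (adjusted p = 0.64) and 0.07 ± 0.07 in *hMYC-1* (adjusted p = 0.57, limma). Its level lay near the highest deposited value, 14.67. *eef1a1a*, *eef1a1b* and *eef1a1l3* were within background on every array.

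*eef1b2*, an exchange factor that reloads eEF1A with GTP, ranged from 13.60 to 13.65 (median 13.63) in *hMYC-2* and read 13.62, 13.63, 13.60 and 13.62 in *hMYC-1*, against 13.45, 13.43 and 13.43 in *hlk*. The arrays within a group differed by no more than 0.05, and the differences of 0.19 ± 0.05 in *hMYC-2* (1.14-fold, adjusted p = 0.023) and 0.18 ± 0.06 in *hMYC-1* (1.13-fold, adjusted p = 0.048, limma) passed the threshold at this small size. In *hMYC-1* the call was lost when any of the 13 arrays was left out (adjusted p = 0.060 to 0.096), and in *hMYC-2* without *hlk* replicate 2 or 3 (adjusted p = 0.058 and 0.054) and with the replicate block (adjusted p = 0.17). The partner subunits *eef1g*, at -0.09 and -0.06, and *eef1db*, at 0.18 and 0.29, were not called.

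*eef2b*, a gene for the translocase eEF2, ranged from 13.73 to 13.92 (median 13.77) in *hMYC-2* and read 13.79, 13.74, 13.66 and 13.68 in *hMYC-1*, against 13.06, 13.67 and 13.64 in *hlk*, with the low value on *hlk* replicate 1. It was not called, at 0.33 ± 0.12 in *hMYC-2* (adjusted p = 0.056) and 0.26 ± 0.13 in *hMYC-1* (adjusted p = 0.19, limma), although it passed in *hMYC-2* without *hlk* replicate 2 (adjusted p = 0.026) or 3 (adjusted p = 0.035). In *hMYC-2* it also passed with a trended and robust prior (adjusted p = 0.040) and quantile normalization (adjusted p = 0.026), and in no other alternative. *eef2l2* was within background.

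*eef2a.1*, another eEF2 gene, was uneven within *hMYC-1*. It ranged from 6.96 to 7.32 (median 7.04) in *hMYC-2* and read 5.57, 5.97, 6.08 and 7.21 in *hMYC-1*, against 7.23, 7.29 and 7.02 in *hlk*, so 3 of the *hMYC-1* arrays were below all others and *hMYC-1* replicate 4 lay within the *hlk* range, and the value of *hMYC-1* replicate 1 was within background. The difference of *hMYC-1* from *hlk* was -0.97 ± 0.28 (1.96-fold lower, adjusted p = 0.029, limma) and that of *hMYC-2* -0.10 ± 0.26 (adjusted p = 0.80). The call was lost without *hMYC-1* replicate 1 (adjusted p = 0.070), 2 (adjusted p = 0.073) or 3 (adjusted p = 0.065), or *hlk* replicate 1 (adjusted p = 0.067) or 2 (adjusted p = 0.080). It was also lost with array weights (adjusted p = 0.20), in the fit of the 2 groups alone (adjusted p = 0.14), with the shift to *actb1* and *gapdh* (adjusted p = 0.20) and with the shrinkage t (local false discovery rate 0.54).

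Of the 3 other genes with an eef symbol, which do not encode elongation factors, none was called. *eef2k*, the kinase that inhibits eEF2, ranged from 6.06 to 6.45 in *hMYC-2* and from 6.35 to 7.49 in *hMYC-1*, against 5.31 to 6.64 in *hlk*, and was called higher in *hMYC-1* without *hlk* replicate 2 (adjusted p = 0.048). *eef1akmt2*, a lysine methyltransferase of eEF1A, was at 0.23 and 0.37, and *eef1e1*, a component of the tRNA synthetase complex, at -0.20 and -0.30.

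Between *hMYC-2* and *hMYC-1* ALL, no translation factor gene was called in either direction by limma. The shrinkage t with a local false discovery rate called none either. Over all probe sets 0.419% were higher and 0.116% lower in *hMYC-2*. The arrays of 2 members did not overlap, where 3.68% of all probe sets had no overlap. *eif4g2a* was above *hMYC-1* on every *hMYC-2* array, by 0.53 ± 0.13 (adjusted p = 0.13), and *eif3s10* below it, by 0.24 ± 0.07 (adjusted p = 0.21). The largest difference was that of *eef2a.1*, 0.87 ± 0.24 (adjusted p = 0.17). Without *hMYC-1* replicate 4, the highest *hMYC-1* array for this gene, the difference was 1.20 and passed (adjusted p = 0.00069). That array is not among those flagged below as outlying. Leaving it out takes away the value that opposes the difference, so that fit does not test it. *eif4a1a* was 0.67 ± 0.27 above *hMYC-1* (adjusted p = 0.37). The median difference of the 64 members was -0.019, beside -0.038 over all probe sets.

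**Figure D5:**
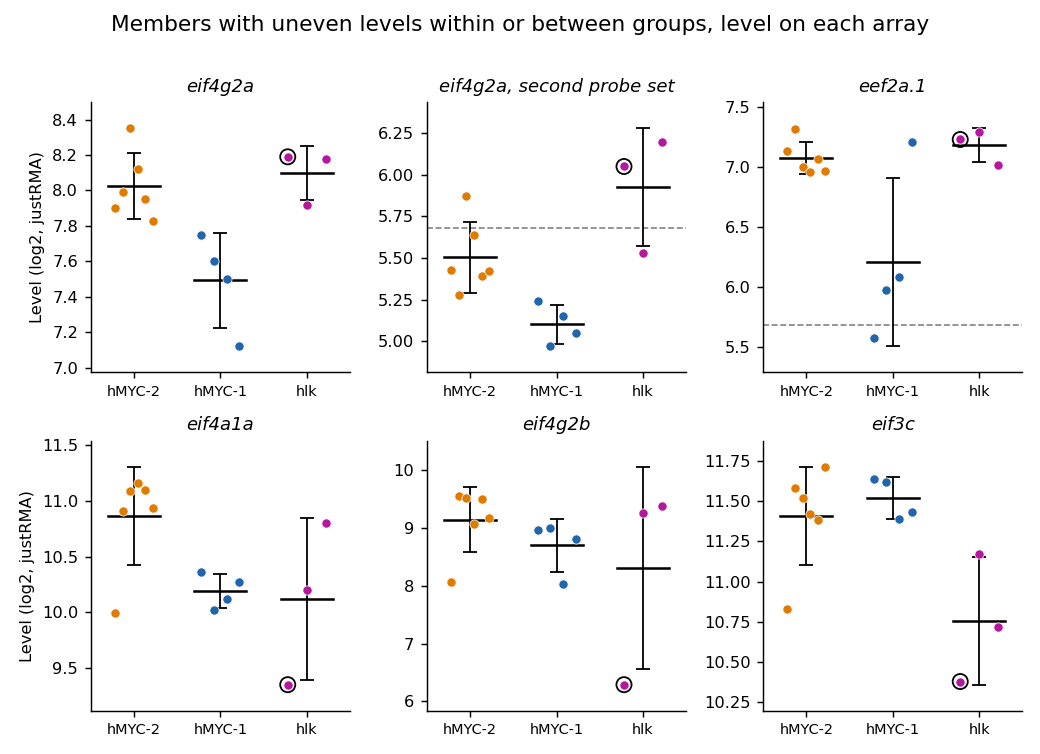
Level (log2, y axis) of members whose arrays were uneven within or between groups, with 1 point per fish, the group mean as a line, the SD as bars, the upper limit of background dashed, and a ring around *hlk* replicate 1. *eif4g2a* is lowest on the 4 *hMYC-1* arrays with both of its probe sets, *eef2a.1* is low on 3 of them, and *hlk* replicate 1 is the lowest *hlk* array for *eif4a1a*, *eif4g2b* and *eif3c*.

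Other genes of protein synthesis were read from a list of 50, of which 37 had a probe set of their own. In *hMYC-2* against *hlk* 6 were higher and 2 lower, in *hMYC-1* against *hlk* 5 were higher and 3 lower, and between *hMYC-2* and *hMYC-1* none was called. Over all probe sets, 11.0% were higher and 13.7% lower in *hMYC-2*, and 9.13% higher and 9.63% lower in *hMYC-1*. Only 6 of the 37 had a mean within background. Of the probe sets above background, 19.1% were higher and 18.1% lower in *hMYC-2*, and 16.9% higher and 13.9% lower in *hMYC-1*. The lowest adjusted p was that of *pdcd4b*, a paralogue of the eIF4A inhibitor PDCD4, with 5.48 to 6.02 in *hMYC-2* and 5.69, 6.0, 6.1 and 5.67 in *hMYC-1*, against 7.85, 7.95 and 7.82 in *hlk*. It fell by 2.08 ± 0.13 (adjusted p = 2.3e-07) in *hMYC-2* and fell by 2.01 ± 0.14 (adjusted p = 8.5e-07, limma) in *hMYC-1*. On *hMYC-2* replicates 2 and 3 (5.62 and 5.48) and *hMYC-1* replicate 4 (5.67) it was within background, so the exact size of the fall is not known. The paralogue *pdcd4a* was 0.44 above *hlk* in *hMYC-2* (adjusted p = 0.051) and 0.70 higher in *hMYC-1* (adjusted p = 0.0086).

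Upstream of the 4E-binding proteins, *mlst8*, a subunit of the TOR complexes, was higher by 0.54 in *hMYC-2* (adjusted p = 0.0071) and by 0.72 in *hMYC-1* (adjusted p = 0.0023). *mtor*, the TOR kinase itself, was 0.48 higher in *hMYC-2* (adjusted p = 0.043) and at 0.52 in *hMYC-1* (adjusted p = 0.052, limma), with *hlk* replicate 1 at 6.69, inside the *hMYC* range, and the other *hlk* arrays at 5.77 and 5.97. *mknk2a*, a kinase of eIF4E, had 5.32 to 6.76 in *hMYC-2* and 5.40 to 6.45 in *hMYC-1*, against 4.5 to 4.94, all within background, in *hlk*, and was thus at least 0.05 higher in *hMYC-2* (adjusted p = 0.024) and at least 0.23 higher in *hMYC-1* (adjusted p = 0.019). Only 2 of the 6 *hMYC-2* and 2 of the 4 *hMYC-1* arrays were themselves above background for this gene. The paralogue *mknk2b*, with 5.88 to 10.68 in *hlk*, was not called, at 1.57 and 1.12. The ribosomal protein gene *rps6*, whose product is phosphorylated downstream of TOR, was not called, at 0.08 and 0.13. Of the 13 measured genes of eIF4E and TOR signaling, *pdcd4a* and *pdcd4b* included, 9 were not called in each comparison with *hlk*.

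Of the genes of termination and ribosome recycling, *gspt1*, a gene of the release factor eRF3, was 0.76 higher in *hMYC-2* (adjusted p = 0.0015) and 0.71 higher in *hMYC-1* (adjusted p = 0.0046, limma), with 2 of the 3 *hlk* arrays within background. The related *gspt1l* had a mean level of 10.33, beside 6.19 for *gspt1*. It was not called, at 0.21 and 0.19 (adjusted p = 0.20 and 0.33, limma), nor were *etf1b* and *abce1*. *pelo*, which rescues stalled ribosomes, was higher by 0.55 (adjusted p = 0.0014) and 0.45 (adjusted p = 0.011). The poly(A)-binding protein gene *pabpc1b* was lower, with 7.49 to 7.74 in *hMYC-2* and 6.86 to 7.55 in *hMYC-1*, against 7.96, 10.23 and 9.37 in *hlk* (adjusted p = 0.0063 and 0.0023), whereas *pabpc1a* was at 0.16 and 0.13. In mitochondria, the elongation factor gene *gfm1* was 0.80 higher in *hMYC-2* (adjusted p = 0.0030) and at 0.18 in *hMYC-1* (adjusted p = 0.54). The other mitochondrial factor genes measured, *tufm*, *tsfm*, *gfm2* and *mtif3*, were not called. *atf4b*, a paralogue of the stress response factor ATF4, fell by 1.06 in *hMYC-1* (adjusted p = 0.0087) and was at -0.44 in *hMYC-2* (adjusted p = 0.19). The other paralogue *atf4a* was not called, at 0.17 in *hMYC-2* and -0.06 in *hMYC-1*. The enzymes that make hypusine on eIF5A, *dhps* at 0.27 and 0.26 and *dohh* at 0.06 and -0.09, were not called.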

How the data were processed

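Each array gave 1 log2 value per probe set. The authors produced these log2 values with justRMA, which corrects background, normalizes by quantiles and summarizes probes, and deposited them. Scanner files were not used here. After 115 control probe sets had been set aside, 15502 were tested with limma 3.58.1 in R 4.3.3, in a linear model with 1 mean for each group, fitted to the 13 arrays together. P-values were adjusted by Benjamini-Hochberg over all of them (threshold 0.05), and errors are moderated standard errors. The number of arrays limits the precision. Symbols came from the platform annotation, all 80 member probe sets matched by gene ID, and 2 probe sets with several symbols were not used. The members, the lists and the rule for naming genes were chosen with earlier results of these data known. Per comparison, the rule takes the 10 largest rises and falls without overlap, then up to 4 genes per complex by adjusted p, and *eef1a1l1*, and other members are given by value or range. Deviations of same-numbered *hMYC-2* and *hlk* arrays from their group means correlated at 0.23 to 0.32. Pairs with unlike numbers were not compared, and no label says that a number marks a shared day or batch. A model with replicate number as a block over all 13 arrays is therefore only an alternative. It is quoted where it ended a call in *hMYC-2* against *hlk*. For the other alternatives, calls gained or lost are given for part of the members only. Marker and partner genes were read in the same way. The steps were tested on simulated data. Alternatives covered the model, the prior, array weights, the scaling, a filter on low values, the mean over probe sets, a 2-fold minimum and each array left out in turn.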

Additional observations from a re-analysis of the deposited data

Results flagged for a closer look

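In groups of 4 to 6 arrays, an array was picked out when its gap to the nearest other array took up more of the group's range than Dixon's 95% critical value. Chance picks out about 1 in 20 independent groups. The 92 groups here are the same *hMYC-1* and *hMYC-2* arrays read for 46 named members, so they are not independent. Among them, 9 values were picked out, all on the arrays given below. On *hMYC-2* replicate 1, *eif4a1a* read 9.99 against 10.91 on the nearest array, *eif4g2b* 8.06 against 9.07 and *eif5b* 7.93 against 8.40, each the lowest of 6. On *hMYC-2* replicate 5, *eif4e3* was the lowest at 6.81 and *eef2b* the highest at 13.92. On *hMYC-1* replicate 2, *eif5* was the lowest of 4 at 9.12, *eif5b* the highest at 8.59, *eef1a1l1* the lowest at 14.05 and *eef1a1b*, which is within background, the lowest at 2.86.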

How the results depend on the processing

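Counts of members past the threshold moved with the test. In *hMYC-2* against *hlk*, the 12 higher and 5 lower members became 4 and 1 with the shrinkage t and local false discovery rate, and 6 and 3 with the replicate block. In *hMYC-1* against *hlk*, the 11 higher and 6 lower became 5 and 1 with the shrinkage t, 7 and 2 in the fit of the 2 groups alone, and 8 and 3 with the replicate block. Same-numbered *hMYC-1* and *hlk* arrays did not deviate together (correlations of -0.15 to 0.10), nor did those of *hMYC-2* and *hMYC-1* (-0.32 to 0.17). In every comparison, the labels give the paired arrays no more than a shared number. In the block, *hMYC-2* replicates 5 and 6 have no partner. Array weights left 3 lower members in *hMYC-2* and 2 in *hMYC-1*. The shift to equal *actb1* and *gapdh* left 0 lower in both, and a 2-fold minimum left 2 higher and 0 lower in both. Where no reason is given, the cause was not tested. Leaving out each array in turn gave 10 to 13 higher and 4 to 7 lower in *hMYC-2*, 7 (without *hlk* replicate 3) to 11 higher and 4 (without *hMYC-1* replicate 3 or *hlk* replicate 1) to 6 lower in *hMYC-1*, and 0 to 1 higher and 0 lower in *hMYC-2* against *hMYC-1*. The median difference of the members ran from -0.061 to 0.059 in *hMYC-2*, from 0.027 to 0.106 in *hMYC-1* and from -0.051 to -0.006 between them. Where leaving out an array made a difference larger and gained a call, the value left out had opposed that difference. Such a fit does not test the difference. No called difference of a named member changed sign. With 3 *hlk* arrays, small differences could be missed.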
